A study of Mus musculus with 6 samples.

Results

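The genes of the NF-κB subunits and of their IκB partners were read in macrophages with reduced *Etv5*, which encodes a transcription factor of the ETS family. They were picked by gene symbol. The 10 genes are the Rel subunits *Rel*, *Rela*, *Relb*, *Nfkb1* and *Nfkb2*, the inhibitors *Nfkbia*, *Nfkbib* and *Nfkbie*, and the atypical IκB genes *Nfkbiz* and *Bcl3*. They are 10 of the 24786 gene symbols in the data, and all 10 passed the filter on low values. The study asked which genes are under the influence of ETV5 in macrophages. Polyadenylated RNA was sequenced from Raw264.7, a mouse macrophage line established from a tumor that Abelson leukemia virus had induced. Cells had received a lentivirus with a negative control shRNA (sh-NC, 3 libraries) or with an shRNA against *Etv5* (sh-*Etv5*, 3 libraries). The labels give strain C57BL/6, a transfection reagent and an age of postnatal day 21 for both groups. The sources do not say how a strain and an age of mice apply to this cultured line. The labels also give readouts at 24 or 48 h after infection. The paper, however, describes the sequenced cells as stably transfected, and its lentivirus protocol continues with puromycin selection during passage. Both groups are a single cultured line, the sources do not say which of the study's *Etv5* shRNAs was sequenced, and the knockdown was partial.

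NF-κB is a family of dimers of Rel proteins. RELA, REL and RELB carry a domain that activates transcription. NFKB1 and NFKB2 are made as long precursors that are cut to p50 and p52, which lack such a domain. In resting cells, IκBα, IκBβ and IκBε (encoded by *Nfkbia*, *Nfkbib* and *Nfkbie*) hold the dimers in the cytoplasm. The IKK kinases mark these inhibitors for destruction, the dimers enter the nucleus, and in many cells new IκBα is among the first products. IκB-ζ (*Nfkbiz*) and BCL3 act in the nucleus instead, where they bind p50 or p52 dimers and raise or lower the output of chosen genes. In macrophages this system drives the early cytokine response to bacterial products, and IκB-ζ is needed for a second wave that includes IL-6.

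The promoters of 4 genes are shown because they set genes whose RNA rose beside one whose RNA was not called, with and without a κB motif. The κB consensus searched was GGG, a purine, any pair of bases, a pair of pyrimidines and CC, on both strands, in the 250 bases before each RefSeq start site (GRCm38.p6). Of the 10 genes, 7 were listed in the RefSeq promoter table, and *Relb*, *Nfkb1* and *Nfkbiz* were not. The consensus occurred before a start site of *Nfkbia*, *Rel*, *Nfkb2* and *Nfkbie*, and it did not occur in the windows of *Rela*, *Nfkbib* and *Bcl3*. Of all 32851 promoter windows of this length, 7.25% held it. Counted by gene, 2225 of 27025 genes held it in some window. A match describes the letters only and does not show that a factor was bound. Each line gives 120 bases 5′ to 3′ on the strand of the gene, and capitals mark the κB consensus. Each line ends at the first annotated exon, except that of *Nfkbie*, which ends at its RefSeq start site, just upstream of that exon.
*Nfkbia* (chr12:55492648-55492767, minus strand): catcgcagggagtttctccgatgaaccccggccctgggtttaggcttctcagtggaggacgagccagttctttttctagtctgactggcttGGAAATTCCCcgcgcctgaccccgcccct
*Rel* (chr11:23770971-23771090, minus strand): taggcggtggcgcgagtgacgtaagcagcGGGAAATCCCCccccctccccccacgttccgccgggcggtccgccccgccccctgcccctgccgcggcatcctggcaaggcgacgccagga
*Nfkbie* (chr17:45555580-45555699, plus strand): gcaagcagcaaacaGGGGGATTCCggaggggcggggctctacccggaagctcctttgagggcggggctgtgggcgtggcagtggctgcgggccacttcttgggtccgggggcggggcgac
*Bcl3* (chr7:19822771-19822890, minus strand): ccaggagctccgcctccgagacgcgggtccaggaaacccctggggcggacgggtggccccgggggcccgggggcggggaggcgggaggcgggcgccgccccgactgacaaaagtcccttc

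The match of *Nfkbia* lay 29 to 20 bases before its start site, and that of *Nfkbie* 106 to 97 bases before it. In *Rel*, a pair of overlapping matches covered bases 92 to 82 before the start site. The windows of *Nfkb2* lie largely in exons annotated by GENCODE, so its sequence is not shown. In *Nfkb2*, a window held overlapping matches at 39 to 29 bases and another at 11 to 2 bases before the start site, and the windows of its other 2 start sites held 1 match each. The ETS motif CCGGAA, which ETS factors can bind, was searched on both strands in the same windows. It was present in 12.0% of all windows (3674 of 27025 genes) and, among the 7 listed genes, in that of *Nfkbie* only, at 2 places. One of these overlapped the κB match.

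The RPKM totals were slightly higher in the sh-*Etv5* libraries, and each of these showed reduced *Etv5*. The values are RPKM, which scale reads by gene length and by the mapped reads of the library. The gene lengths used are not stated in the sources, so orders and sums of levels across genes depend on lengths that could not be checked. The change of a gene, or of the ratio of a pair of genes, between groups does not depend on them. The RPKM summed to between 320462 and 322949 per sh-NC library and to between 330454 and 340257 per sh-*Etv5* library. The number of reads is unknown, so no counting error was computed. *Etv5* (minus strand, chromosome 16, 22381309 to 22439719) measured 9.18, 9.89 and 9.39 RPKM in sh-NC and 5.19, 4.91 and 5.28 RPKM in sh-*Etv5* libraries (log2 fold change -0.78, limma adjusted p = 2.74e-07). Of its 50-base sequences, 24.5% also occur in transcripts of other genes, mainly the pseudogene *Gm4798*, which could share its reads. Of 8 macrophage markers, 7 reached 1 RPKM in some library and *Mertk* did not. Of these, 3 were called higher, among them *Itgam* (3.77-fold) and *Adgre1* (4.35-fold), and 4 were called lower, among them *Csf1r* (0.568-fold). Their sum, most of which was *Lyz2*, was 3837 to 3942 RPKM in sh-NC and 2829 to 2909 RPKM in sh-*Etv5*. No marker of T cells, B cells, fibroblasts or epithelium (5 genes each) reached 1 RPKM. Of 5 neutrophil markers, *S100a8* rose from at most 0.491 to at least 15.5 RPKM, while *Ly6g*, *Elane* and *S100a9* were listed at 0 in every library. The part of these markers in the results below was not tested. The sources do not say whether libraries of a group came from separate cultures, so p-values measure the spread between these libraries, which may be technical. In such bulk RNA, fewer cells that express a gene and less RNA per cell cannot be told apart.

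Of the 10 genes, 8 were higher in sh-*Etv5* cells, none was lower, and *Relb* and *Nfkbie* were not called. Calls were made with limma on log2(RPKM + 1) at a Benjamini-Hochberg adjusted p under 0.05 across the 10738 genes tested. With so many genes moving in these libraries, 74.3% of all tested genes were called, 33.3% as higher and 41.0% as lower. The share of the 10 genes called in either direction was therefore close to that of all genes, whereas their direction was one-sided. For 8 genes each sh-*Etv5* library lay above each sh-NC library, against 34.3% of all genes tested. A log2 fold change above 1 was found for *Nfkbia*, *Nfkbib*, *Nfkbiz* and *Bcl3*, against 6.23% of all genes tested. The median log2 fold change of the 10 genes was 0.56, and that of all genes tested was -0.05.

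**Figure D1:**
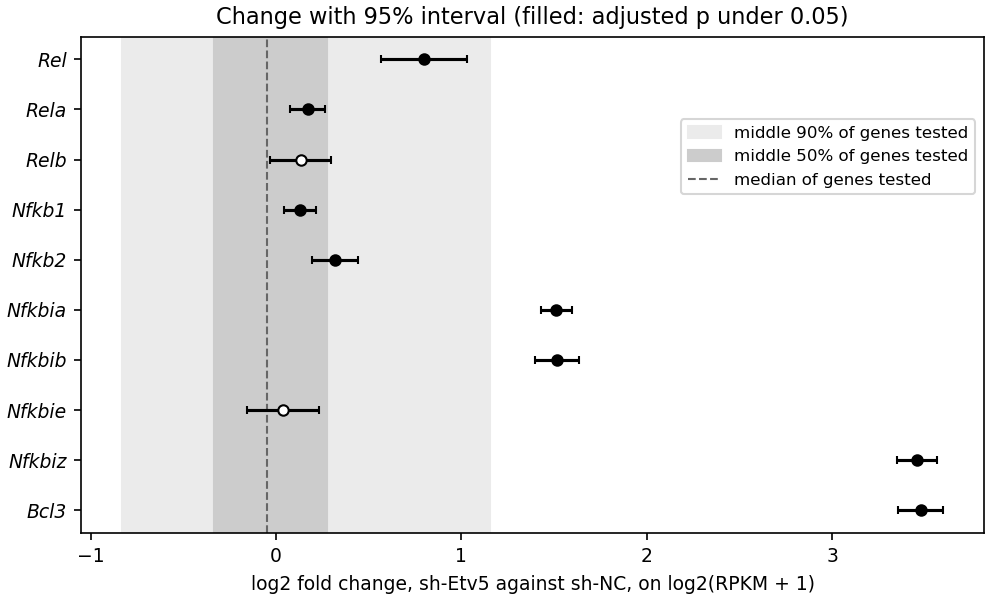
Log2 fold change of each gene (horizontal axis, sh-*Etv5* against sh-NC on the log2(RPKM + 1) scale) with its 95% interval from limma, with filled points for an adjusted p under 0.05. Grey bands hold the middle 50% and 90% of the 10738 genes tested. The subunits lie at 0.80 or below, *Nfkbia* and *Nfkbib* at 1.51 and 1.52, and *Nfkbiz* and *Bcl3* at 3.46 and 3.48.

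Among the subunits, *Rel* had the largest change. *Rel* (chromosome 11, 23736847 to 23770970, minus strand) encodes c-Rel, the subunit best known from lymphocytes and from *Il12b* induction in macrophages. It was at 5.54, 4.84 and 6.53 RPKM in sh-NC and at 10.6, 12.0 and 9.05 RPKM in sh-*Etv5* libraries. Each sh-*Etv5* library was above each sh-NC library, although the libraries within a group also spread. Its mean rose 1.87-fold, from 5.64 ± 0.849 to 10.6 ± 1.48 RPKM (SD, n = 3). This corresponded to a log2 fold change of 0.80 (SE 0.105, limma adjusted p = 3.71e-05).

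The other subunits moved less. *Nfkb2* (chromosome 19, 46304320 to 46312385, plus strand) encodes p100, the precursor of p52 in the noncanonical pathway. Its values were 17.5, 15.1 and 17.5 RPKM in sh-NC and 21.0, 21.0 and 21.1 RPKM in sh-*Etv5*, a rise of 25.9%. The log2 fold change was 0.32 (SE 0.0572, limma adjusted p = 0.000403). Of its annotated exonic bases, 11.6% overlap a long noncoding RNA on the opposite strand that is not among the symbols. A further gene on that strand, *Psd*, overlaps 6.52% and stayed at or below 1.22 RPKM.

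*Rela* (chromosome 19, 5637483 to 5648130, plus strand) encodes p65, the main activating subunit in macrophages. It was at 23.4, 23.1 and 24.7 RPKM in sh-NC and at 27.6, 26.9 and 26.0 RPKM in sh-*Etv5*, which is 13.1% higher (log2 fold change 0.17, SE 0.0434, limma adjusted p = 0.00408). *Nfkb1* (chromosome 3, 135584655 to 135691547, minus strand) encodes p105, from which p50 is cut. It was at 38.5, 39.6 and 40.1 RPKM in sh-NC and at 43.6, 44.3 and 41.7 RPKM in sh-*Etv5*, which is 9.68% higher (log2 fold change 0.13, SE 0.0383, limma adjusted p = 0.00979). Groups did not overlap for either gene, but the gaps between them were small. With libraries rescaled to the same sum, *Nfkb1* was no longer called (log2 fold change 0.07, limma adjusted p = 0.158).

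*Relb* (chromosome 7, 19606217 to 19629438, minus strand) encodes the partner of p52. It was at 5.42, 5.32 and 6.39 RPKM in sh-NC and at 6.32, 6.77 and 5.97 RPKM in sh-*Etv5*, so the groups overlapped. Its log2 fold change was 0.13 (95% interval -0.03 to 0.30, limma adjusted p = 0.123). Its call depended on sh-NC replicate 3, the highest of that group. Without that library, the log2 fold change was 0.21 and the limma adjusted p was 0.0268.

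**Figure D2:**
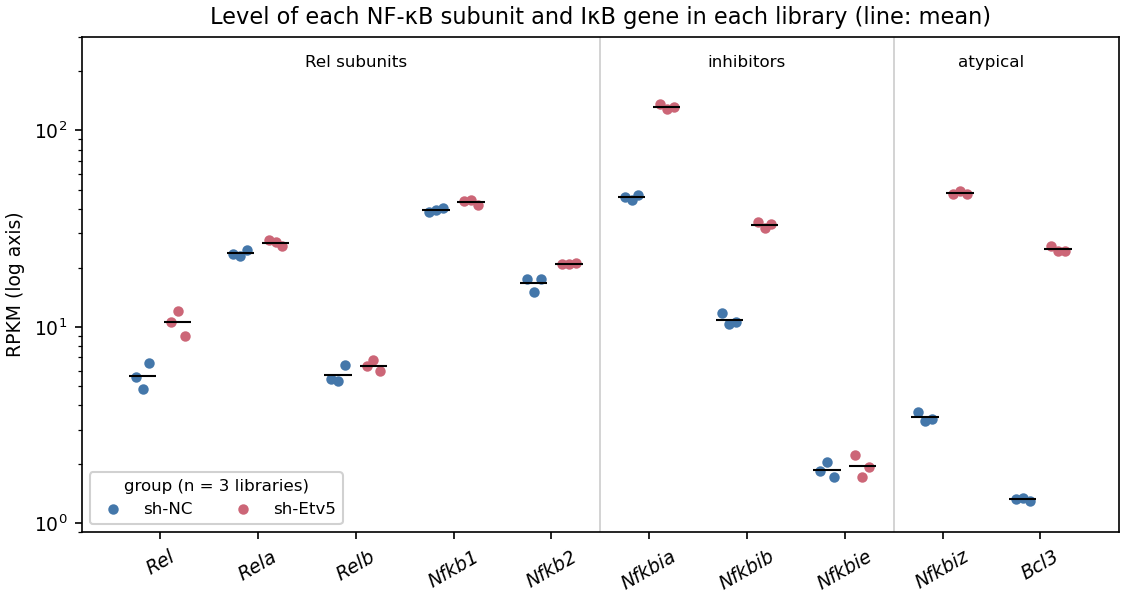
RPKM of each gene (vertical log axis) in the 3 sh-NC and the 3 sh-*Etv5* libraries, with points for libraries and lines for group means. *Bcl3* and *Nfkbiz* stand lowest or near lowest in sh-NC, at 1.32 and 3.46 RPKM. In sh-*Etv5*, *Bcl3* stands among the subunit genes at 24.9 RPKM and *Nfkbiz* above them at 48.1 RPKM.

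Of the 3 inhibitors that hold NF-κB in the cytoplasm, *Nfkbia* and *Nfkbib* rose about alike and *Nfkbie* was not called. *Nfkbia* (chromosome 12, 55489410 to 55492647, minus strand) encodes IκBα, whose gene is a direct NF-κB target and closes a feedback loop. It was at 45.8, 44.3 and 46.7 RPKM in sh-NC and at 136.8, 128.3 and 131 RPKM in sh-*Etv5*, and it had the highest level of the 10 genes in both groups. The gap between the groups was far wider than the spread within them. Its mean rose 2.89-fold, from 45.6 ± 1.22 to 132 ± 4.32 RPKM (SD, n = 3). This corresponded to a log2 fold change of 1.51 (SE 0.0374, limma adjusted p = 5.03e-11).

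*Nfkbib* (chromosome 7, 28758251 to 28767512, minus strand) encodes IκBβ, which also binds dimers of RELA and c-Rel. It was at 11.8, 10.4 and 10.6 RPKM in sh-NC and at 34.1, 31.7 and 33.4 RPKM in sh-*Etv5*. Its mean rose 3.03-fold, from 10.9 ± 0.764 to 33.1 ± 1.21 RPKM (SD, n = 3). This was a log2 fold change of 1.52 (SE 0.054, limma adjusted p = 8.59e-10). Exons of *Nfkbib* lie across from other genes on the opposite strand. Whether counting used strand is not stated in the sources. *Ccer2* overlaps 14.5% of its exonic bases and stayed at or below 0.260 RPKM. *Sirt2*, which overlaps 42 bases (1.94%), rose from 20.2 ± 0.292 to 42.7 ± 1.09 RPKM (SD, n = 3, log2 fold change 1.04, limma adjusted p = 1.14e-09). The part of the *Sirt2* overlap in the *Nfkbib* value was not tested.

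*Nfkbie* (chromosome 17, 45555703 to 45563169, plus strand) encodes IκBε. It was at 1.84, 2.07 and 1.72 RPKM in sh-NC and at 2.23, 1.72 and 1.93 RPKM in sh-*Etv5*. The groups overlapped at this low level. Its log2 fold change was 0.04 (95% interval -0.15 to 0.23, limma adjusted p = 0.697), an interval that lies below the estimates of *Nfkbia* and *Nfkbib*.

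*Nfkbiz* and *Bcl3*, the nuclear IκB genes among the 10, had the largest rises of them. From among the lowest levels, *Bcl3* rose to between *Rela* and *Nfkb2*, and *Nfkbiz* rose above each subunit. *Bcl3* (chromosome 7, 19808462 to 19822770, minus strand) encodes a partner of p50 and p52 dimers and was first found at a translocation in leukemia. It was at 1.33, 1.34 and 1.30 RPKM in sh-NC and at 25.8, 24.5 and 24.4 RPKM in sh-*Etv5*. It is the gene shown with no κB consensus in its promoter stretch. It was the lowest of the 10 genes in each sh-NC library, and in sh-*Etv5* it was above *Nfkb2*. Its mean rose 18.8-fold, from 1.32 ± 0.0218 to 24.9 ± 0.796 RPKM (SD, n = 3). This was a log2 fold change of 3.48 (SE 0.0541, limma adjusted p = 1.03e-12). Its exons overlap the antisense gene *Gm16175* over 6.50% of their bases, and *Gm16175* is not among the symbols.

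*Nfkbiz* (chromosome 16, 55811375 to 55838899, minus strand) measured 3.69, 3.31 and 3.39 RPKM in sh-NC and 47.6, 49.3 and 47.3 RPKM in sh-*Etv5* libraries, a 13.9-fold rise of the mean. It ranked 8 of the 10 by level in sh-NC cells and 2 in sh-*Etv5* cells, below *Nfkbia* and above *Nfkb1*. Its log2 fold change of 3.46 (95% interval 3.35 to 3.57) and that of *Bcl3* (95% interval 3.36 to 3.60) overlapped on the log2(RPKM + 1) scale. Among all genes tested, *Bcl3* ranked 36 and *Nfkbiz* 37 by log2 fold change. On this scale a low starting value makes a change look smaller, and with a pseudocount of 0.01 the values were 4.22 for *Bcl3* and 3.79 for *Nfkbiz*. In keeping with this, the ratio of *Nfkbiz* to *Bcl3* was lower in each sh-*Etv5* library (1.84, 2.01 and 1.94) than in each sh-NC library (2.78, 2.46 and 2.61).

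Orders of genes by level rest on the gene lengths behind the RPKM, which the sources do not state. By RPKM, the order in sh-NC cells was *Nfkbia*, *Nfkb1*, *Rela*, *Nfkb2*, *Nfkbib*, *Relb*, *Rel*, *Nfkbiz*, *Nfkbie* and *Bcl3*. Only *Relb* and *Rel*, neighbors in this order, overlapped across libraries. In sh-*Etv5* cells the order was *Nfkbia*, *Nfkbiz*, *Nfkb1*, *Nfkbib*, *Rela*, *Bcl3*, *Nfkb2*, *Rel*, *Relb* and *Nfkbie*, and no neighbors overlapped. Against the levels of all genes tested, *Bcl3* moved from percentile 5.9 to 75.5, *Nfkbiz* from 20.1 to 88.1 and *Nfkbia* from 86.9 to 96.5. *Nfkbie*, which was not called, went from the place above *Bcl3* to the lowest place as *Bcl3* passed it.

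Ratios within a library do not depend on how libraries are scaled. An overlap between groups of so few libraries does not show that a pair of genes changed equally. *Nfkbia* was 3.89, 4.27 and 4.43 times *Nfkbib* in sh-NC and 4.01, 4.05 and 3.93 times in sh-*Etv5* libraries, so the groups overlapped. *Rela* was 0.608, 0.583 and 0.615 of *Nfkb1* in sh-NC and 0.633, 0.608 and 0.622 in sh-*Etv5*, which also overlapped. *Rel*, by contrast, was 0.237, 0.210 and 0.265 of *Rela* in sh-NC and 0.384, 0.446 and 0.348 in sh-*Etv5*.

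*Nfkbia* and *Nfkbib* gained on *Rela*, and *Nfkbie* did not. *Nfkbia* was 1.96, 1.92 and 1.90 times *Rela* in sh-NC and 4.96, 4.77 and 5.04 times in sh-*Etv5* libraries. *Nfkbib* was 0.503, 0.450 and 0.428 of *Rela* in sh-NC and 1.23, 1.18 and 1.29 times *Rela* in sh-*Etv5*. Both thus stood higher against *Rela* in each sh-*Etv5* library. *Nfkbie* was 0.0786, 0.0896 and 0.0699 of *Rela* in sh-NC and 0.0808, 0.0639 and 0.0745 in sh-*Etv5*, and the groups overlapped. The RPKM of *Nfkbia*, *Nfkbib* and *Nfkbie* together was 0.657, 0.646 and 0.621 of that of the 5 subunits in sh-NC, and 1.59, 1.46 and 1.60 of it in sh-*Etv5*. The groups did not overlap for this ratio, whose mean in sh-*Etv5* cells was 2.42 times that in sh-NC cells and which rests mostly on *Nfkbia*, the most abundant of the 3. Summed RPKM rose 2.86-fold for the 3 inhibitors, 1.19-fold for the 5 subunits and 15.2-fold for *Nfkbiz* with *Bcl3*. These are RNA levels and do not measure protein, degradation of IκB or nuclear entry.

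The atypical IκB genes were compared with the subunits whose products they bind. *Bcl3* was 0.0345, 0.0340 and 0.0325 of *Nfkb1* in sh-NC and 0.592, 0.553 and 0.585 of it in sh-*Etv5* libraries. *Nfkbiz* was 0.0957, 0.0837 and 0.0847 of *Nfkb1* in sh-NC and 1.09, 1.11 and 1.13 times *Nfkb1* in sh-*Etv5*. In RPKM, *Nfkbiz* was thus far below *Nfkb1* in each sh-NC library and above it in each sh-*Etv5* library. Against *Nfkb2*, the mean ratio of *Bcl3* was 0.0798 in sh-NC and 1.19 in sh-*Etv5*.

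Within the 5 IκB genes chosen here, *Nfkbiz* and *Bcl3* took a larger share. These shares depend on that choice. They leave out a further nuclear IκB gene, *Nfkbid*, which was at 22.1 RPKM in sh-NC and 28.9 RPKM in sh-*Etv5*. *Nfkbiz* made up 5.72%, 5.39% and 5.33% of the summed RPKM of the 5 IκB genes in sh-NC and 19.3%, 20.9% and 19.9% in sh-*Etv5* libraries. The share of *Bcl3* was 2.10% ± 0.0794 in sh-NC and 10.4% ± 0.115 in sh-*Etv5* (SD, n = 3). The share of *Nfkbia* was 72.2% ± 1.14 and 55.0% ± 0.504, although its level rose. The shares of *Nfkbib* (17.3% and 13.8%) and *Nfkbie* (2.98% and 0.816%) were lower in sh-*Etv5* as well. Among the subunits, the shares in sh-NC and sh-*Etv5* put *Nfkb1* at 43.3% ± 1.56 and 40.0% ± 0.163, *Rela* at 26.0% ± 0.192 and 24.9% ± 0.537, and *Rel* at 6.17% ± 0.679 and 9.75% ± 1.06. Groups did not overlap for these shares, while they overlapped for those of *Relb* and *Nfkb2*.

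**Figure D3:**
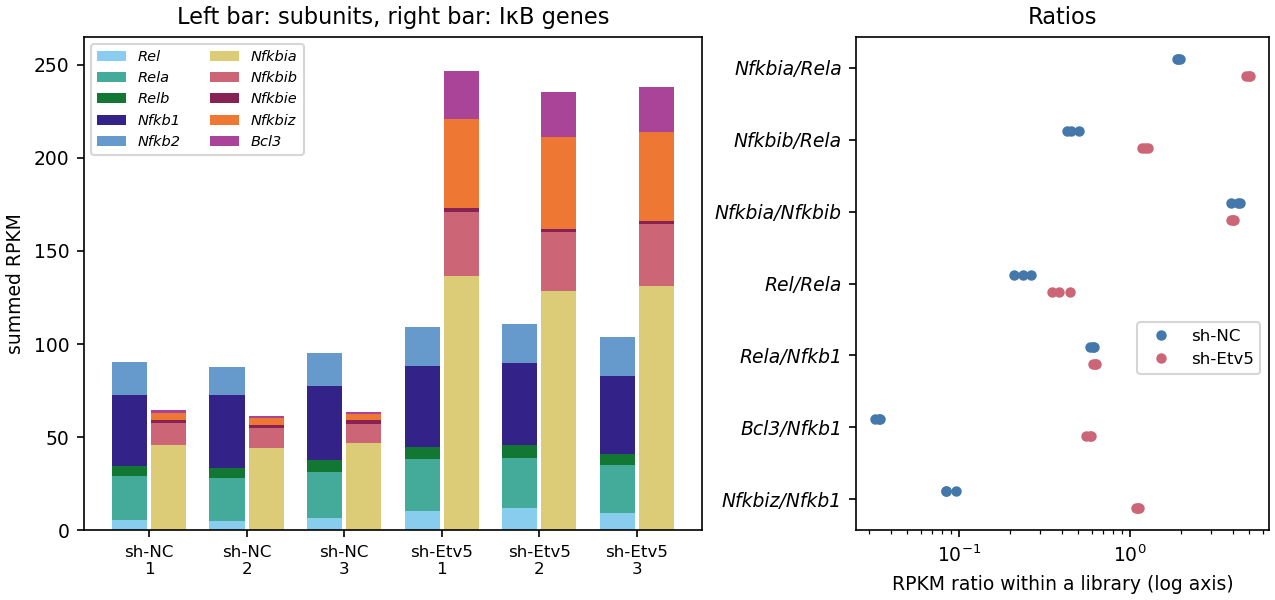
Left, RPKM of the 5 subunits and of the 5 IκB genes, stacked per library (left and right bars, vertical axis from 0). Right, RPKM ratios within each library on a log axis. In every sh-NC library the subunits sum higher than the IκB genes, and in every sh-*Etv5* library lower, while *Nfkbia*/*Nfkbib* and *Rela*/*Nfkb1* overlap between groups.

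The sh-*Etv5* cells had 17 of 45 further pathway genes higher and 18 lower, all 45 were tested, and 10 passed in neither direction. The median of their log2 fold changes was 0.02, beside -0.05 for all genes tested. Both directions were close to their shares among all genes (33.3% higher and 41.0% lower). Counts of single lists below are to be read beside these shares. All 4 other IκB-like and IκB-associated genes were called higher, but the call of *Nkiras1* was lost under 9 of 14 alternatives. The nuclear IκB gene *Nfkbid* rose from 22.1 ± 0.823 to 28.9 ± 2.05 RPKM (SD, n = 3, log2 fold change 0.37, limma adjusted p = 8.56e-05), a small change beside those of *Nfkbiz* and *Bcl3*. *Nkiras1*, named after its values were seen, was 14.6% higher (log2 fold change 0.16, limma adjusted p = 0.0379). Its limma adjusted p was 0.137 after rescaling to equal sums. It was 0.0535 to 0.127 when any 1 library other than sh-*Etv5* replicate 2 was left out. *Nfkbil1* (log2 fold change 0.62) and *Nkiras2* (0.38), whose product binds IκBβ, were also higher.

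Among 10 genes of the IKK complex and its kinases, 3 were higher and 5 lower, and 2 were not called. These counts lie near the shares of all genes tested, 33.3% higher and 41.0% lower. *Ikbke*, an IKK-related kinase that is itself induced by NF-κB, was at 5.41, 5.94 and 5.15 RPKM in sh-NC and at 19.6, 20.6 and 18.7 RPKM in sh-*Etv5*. Its log2 fold change was 1.67 (SE 0.0604, limma adjusted p = 9.77e-10), the only one above 1 in this list. *Map3k7* (-0.35), which encodes the kinase TAK1 upstream of IKK, and *Tab1* (-0.56), which encodes a TAK1-binding protein, were lower. The core subunits, named after their values were seen, went both ways, with *Chuk* (IKKα) at 0.28, *Ikbkb* (IKKβ) at -0.32 and *Ikbkg* (NEMO) at -0.23.

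The ubiquitin ligase that takes up phosphorylated IκB had 1 of 5 genes higher and 3 lower, against 33.3% and 41.0% of all genes tested. *Fbxw11*, one of its substrate receptors, was higher (log2 fold change 0.45), and *Skp1a* (-0.33) and *Rbx1* (-0.33) were lower. With no filter on low values *Rbx1* was not called (limma adjusted p = 0.0692). Of the 4 genes that keep the kinase NIK low, *Birc3* was higher (0.65), *Traf2* (-0.51) and *Traf3* (-0.42) were lower, and *Birc2* was not called.

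Among 7 genes that encode parts of the linear ubiquitin complex or deubiquitinases, 3 were higher and 1 lower, and 3 were not called. The shares of all genes tested were 33.3% higher and 41.0% lower. *Tnfaip3*, which encodes the brake A20, was at 2.36, 2.20 and 1.79 RPKM in sh-NC and at 4.74, 4.92 and 4.27 RPKM in sh-*Etv5* (log2 fold change 0.86, limma adjusted p = 3.65e-06). *Otulin*, which cuts linear ubiquitin, was higher (0.66) and *Rbck1*, a subunit of the complex that makes it, was lower (-0.50). Of 5 A20-binding proteins, 4 were higher, among them *Tnip1* (1.17), *Tnip2* (0.44) and *Tax1bp1* (0.30). *Tnip1*, which encodes ABIN1, rose 2.29-fold, from 27.8 ± 1.48 to 63.7 ± 2.62 RPKM (SD, n = 3, limma adjusted p = 2.29e-09).

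Of 10 nuclear cofactors and brakes of Rel proteins, 1 was higher, 7 were lower, and the others were not called. Among all genes tested, 33.3% were higher and 41.0% lower. *Ppp1r13l*, which encodes the RELA inhibitor iASPP, rose from 2.59 ± 0.318 to 7.66 ± 0.831 RPKM (SD, n = 3, log2 fold change 1.27, limma adjusted p = 1.90e-07). *Nkrf*, a repressor at NF-κB sites, fell from 7.90 ± 0.495 to 4.09 ± 0.298 RPKM (SD, n = 3, log2 fold change -0.81, limma adjusted p = 9.43e-07). *Crebbp*, a histone acetyltransferase that works with RELA, was lower as well (-0.42).

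**Figure D4:**
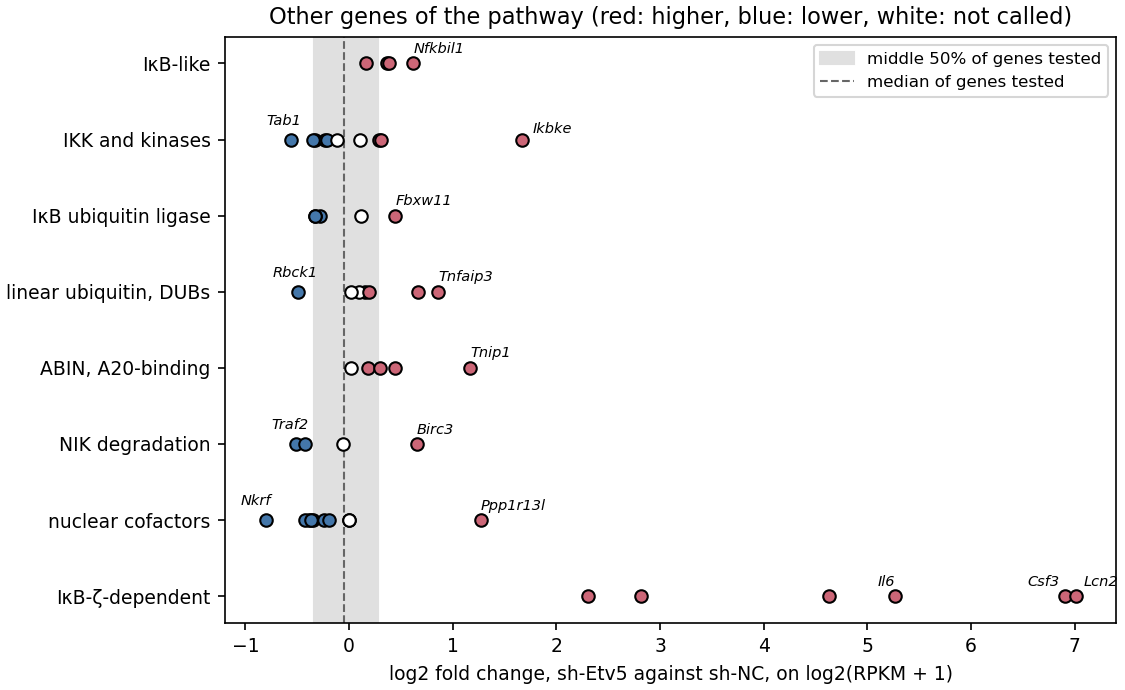
Log2 fold change (horizontal axis, sh-*Etv5* against sh-NC on log2(RPKM + 1)) of each tested gene in 7 lists of the pathway and in the IκB-ζ-dependent genes, 1 point per gene and 1 row per list. Red points were called higher, blue lower and white points were not called, and the grey band holds the middle 50% of all genes tested. Most pathway genes lie close to the band, with *Ikbke*, *Tnip1* and *Ppp1r13l* above 1. The tested IκB-ζ-dependent genes lie between 2.31 and 7.01, and all of them but *Cebpd* passed the filter only through sh-*Etv5*.

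Genes known to need IκB-ζ were read beside *Nfkbiz*. Of 7 such genes, 6 were tested and all 6 were higher, at a median of 4.95 on the log2 fold change scale. All of them but *Cebpd* were below 1 RPKM in sh-NC and passed the filter through sh-*Etv5*, so for these a rise was set by the filter. The count and the median are therefore descriptions only, and the median also depends on the pseudocount. *Cebpd*, named after its values were seen, encodes a transcription factor and was well above the filter in both groups. It was at 12.4, 9.51 and 12.2 RPKM in sh-NC and at 57.6, 59.0 and 62.8 RPKM in sh-*Etv5*, a 5.26-fold rise of the mean (log2 fold change 2.31, SE 0.0814, limma adjusted p = 8.10e-10). In sh-*Etv5* libraries, *Lcn2* was at 127.1 to 140.9 RPKM, *Csf3* at 119.3 to 123.2 RPKM and *Il6* at 34.5 to 40.4 RPKM. In sh-NC libraries *Lcn2* and *Csf3* stayed at or below 0.0566 RPKM and *Il6* was listed at 0. Their log2 fold changes of 7.01, 6.90 and 5.26 are set by the pseudocount, and with 0.01 in its place *Csf3* (12.52) exceeded *Lcn2* (11.88) and *Il6* (11.87). *Il12b* stayed at or below 0.0542 RPKM in every library. Of 6 genes that are targets of RELB and p52 in stromal or lymphoid tissue, *Cxcl13*, *Ccl19*, *Cxcl12* and *Madcam1* were listed at 0 throughout and *Ccl21a* stayed at or below 0.0489 RPKM. *Tnfsf13b*, which encodes the B cell factor BAFF, was at 2.82 ± 0.183 in sh-NC and 2.80 ± 0.317 RPKM in sh-*Etv5* (SD, n = 3, log2 fold change -0.01, 95% interval -0.19 to 0.17, limma adjusted p = 0.924).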

How the data were processed

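RNA of 3 sh-NC and 3 sh-*Etv5* libraries was analysed, grouped by the sample titles. The authors deposited RPKM values per gene symbol and library, not log transformed, named after coverage tracks on mm10. The aligner, annotation and use of strand are not given in the sources used here. Genes with at least 1 RPKM in at least 3 libraries were tested with limma 3.58.1 (R 4.3.3, eBayes with an intensity trend, both directions, no covariate) on log2(RPKM + 1), since RPKM values are not counts, and the steps were tested on simulated data. Intervals are 95% intervals from limma. Coordinates and exon overlaps came from GENCODE M21 (GRCm38, the assembly of mm10) and promoters from RefSeq. Python 3.11.15 was used for summaries.

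The 10 genes, the pathway lists and the tests were chosen with earlier results of these data known. Of each further pathway or target list, the 3 tested genes with the largest absolute log2 fold change and all genes below the filter were named; marker genes and others named after their values were seen fall outside this rule. Sums, shares and ratios carry no test. Alternatives were other pseudocounts, filters, scalings and thresholds, no trend, a replicate block and leaving out each library. Protein sequences were not analysed here.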

Additional observations from a re-analysis of the deposited data

How the results depend on the processing

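The direction of the 8 genes called higher held under each of the 15 alternatives to their fit. Of 149 values for the 10 genes, 147 kept their call, and the exceptions were *Nfkb1* with libraries rescaled to the same sum (log2 fold change 0.07, limma adjusted p = 0.158) and *Relb* without sh-NC replicate 3 (0.21, limma adjusted p = 0.0268). The cause was not tested. *Nfkbie* changed sign under some settings but was called under none. Of 787 values for 53 other named or listed genes, 766 kept their call, 15 lost it, 6 gained it and 0 were reversed. Of the losses, 9 fell on *Nkiras1*, including that with the replicate block (limma adjusted p = 0.0603). Requiring an absolute log2 fold change above 1 left 669 genes higher and 322 lower, 4 of the 10 genes higher, and 3 pathway genes higher and 0 lower. With *Nfkbiz* and *Bcl3* added to the inhibitors, the ratio of the sums was 0.694 in sh-NC and 2.22 in sh-*Etv5*. Rescaling to the same sum moved the median log2 fold change of all genes from -0.05 to -0.10. A rescaling by genes outside the 10 highest, added after the data were seen, changed no call of the 10 genes.

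Replicate numbers are shared between the groups, but deviations from the group means correlated by 0.0739, -0.071 and -0.0352 for equal numbers, and not every library correlated best with its own number. With the replicate block, 3539 genes were higher and 4361 lower, and no call of the 10 genes changed. Depth is unknown, so how far it limits *Nfkbie* and *Bcl3* in sh-NC, at about 1 to 2 RPKM, could not be computed.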
